A study of Mus musculus with 9 samples.

Results

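Transcripts of 42 genes of the cell cycle were followed in CD11b+ liver cells. The genes were listed for their known function and matched by symbol; the rule itself uses no measured value, but the list was drawn up with earlier results of these data known. They were divided by textbook role into 19 S-phase members, which act at entry into the cycle and in DNA replication, and 23 mitotic members, which act from the end of replication to cytokinesis. Ccna2, whose cyclin works in S phase as well as later, was placed with the mitotic members. All 42 were found among the 45777 genes of the tables, and all 42 were among the 13820 kept for testing because they reached 1 TPM in at least 3 of the 9 samples. TPM is a share of the sample's transcripts, adjusted for gene length and scaled to sum to 1000000 in each sample, so levels of different genes can be set side by side.

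The cells came from mouse livers made to fail with acetaminophen (APAP), the painkiller that injures hepatocytes in overdose and draws monocytes and neutrophils into the liver. APAP was injected into the abdomen of every animal, including the controls, and CD11b+ cells were isolated 48 h later. CD11b is an integrin subunit carried by monocytes, macrophages and neutrophils. At 8 h, extracellular vesicles (EVs) were given into a vein: SIRP-EV made by HEK cells, which derive from human embryonic kidney (HEK-EV, 3 samples), or SIRP-EV from MSC, the usual short form of mesenchymal stromal cells (MSC-EV, 3 samples). The control group has the treatment PBS (3 samples). The labels do not spell out SIRP, and they give no strain, sex, age or number of animals. No animals without APAP were analysed here. The labels do not say that the samples of a group came from separate animals, so the spread between them may be technical.

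Itgam, the gene of CD11b, was at 196 to 434 TPM and the general leukocyte gene Ptprc at 418 to 669 TPM over the 9 samples. The summed level was 7372 to 9856 TPM for 8 macrophage genes, 3402 to 11324 TPM for 6 monocyte genes and 3212 to 7292 TPM for 9 genes of mature neutrophils, so the samples hold the mixture that a CD11b sort takes. Depth is known only in relative terms, from the ratio of coverage to FPKM in each table, which ran from 5.278 in PBS 1 to 6.845 in MSC-EV 2. No read counts were available for use, and no counting interval was computed.

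Cells pass through 4 phases, and each has its own genes. In G1, cyclin D (Ccnd1) with its kinases frees E2F factors such as E2f1, which switch on cyclin E (Ccne1, Ccne2) and the machinery of replication: Cdc6 and Cdt1 load the Mcm helicase at origins, Gins2 helps to activate it, and Pcna clamps the polymerases to DNA. Later, cyclin B (Ccnb1, Ccnb2) with Cdk1 drives mitosis until Cdc20 and Ube2c, parts of the machinery that destroys cyclins, end it. E2F factors act through GC-rich promoter sites, while many genes of G2 and mitosis carry a CHR element read by the DREAM and MuvB complexes, often with CCAAT boxes read by NF-Y. Most blood monocytes and neutrophils have left the cycle, while tissue macrophages can divide in place.

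The promoters of both classes differed in these motifs, and 4 are printed because these 2 S-phase and 2 mitotic members had the smallest p in the comparison of MSC-EV with PBS among members with an entry. Each window starts 250 bases before a start site and covers 300 bases, 5′ to 3′ on the strand of the gene, from the RefSeq promoters of GRCm38.p6. The start site is the gene's first base in the tables for Cdt1, Ccnb1 and Ccnb2, while that of the Cdc6 entry lies 442 bases after the gene's first base, so that its window is within the gene. Capitals mark matches on either strand to the E2F motifs TTTCGCGC, TTTGGCGC, TTTCCCGC and TTTGCCGC, to the CHR motifs TTTGAA and TTTAAA, and to CCAAT. The regions are Cdt1 at chr8:122567765-122568064 on the plus strand, Cdc6 at chr11:98907901-98908200 on the plus strand, Ccnb2 at chr9:70421505-70421804 on the minus strand and Ccnb1 at chr13:100786437-100786736 on the minus strand.
Cdt1: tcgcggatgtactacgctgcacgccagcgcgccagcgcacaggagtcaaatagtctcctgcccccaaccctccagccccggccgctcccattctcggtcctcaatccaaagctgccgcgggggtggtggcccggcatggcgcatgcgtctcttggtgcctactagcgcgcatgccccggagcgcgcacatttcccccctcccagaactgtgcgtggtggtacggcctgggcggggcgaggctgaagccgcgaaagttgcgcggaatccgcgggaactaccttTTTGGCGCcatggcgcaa
Cdc6: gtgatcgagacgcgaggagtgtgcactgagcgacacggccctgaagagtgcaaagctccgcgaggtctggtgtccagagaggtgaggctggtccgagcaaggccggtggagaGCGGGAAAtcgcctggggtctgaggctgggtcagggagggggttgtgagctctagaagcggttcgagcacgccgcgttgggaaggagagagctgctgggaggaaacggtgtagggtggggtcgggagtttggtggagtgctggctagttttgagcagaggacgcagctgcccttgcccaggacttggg
Ccnb2: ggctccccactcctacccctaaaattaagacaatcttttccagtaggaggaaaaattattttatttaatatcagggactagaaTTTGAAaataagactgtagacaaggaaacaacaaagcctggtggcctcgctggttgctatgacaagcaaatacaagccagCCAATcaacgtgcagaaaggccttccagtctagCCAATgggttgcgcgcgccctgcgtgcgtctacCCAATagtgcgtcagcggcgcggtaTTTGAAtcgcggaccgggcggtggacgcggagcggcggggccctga
Ccnb1: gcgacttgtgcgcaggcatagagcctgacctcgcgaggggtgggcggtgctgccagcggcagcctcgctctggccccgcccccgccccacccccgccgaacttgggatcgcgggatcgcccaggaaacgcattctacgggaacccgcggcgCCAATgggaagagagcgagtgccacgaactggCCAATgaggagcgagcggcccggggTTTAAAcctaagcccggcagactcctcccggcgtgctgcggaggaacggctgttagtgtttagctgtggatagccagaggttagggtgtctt

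In these windows, Cdt1 has 1 E2F match that starts 32 bases after the start site, and Cdc6 has 1 that starts 138 bases before the start site of its entry, read on the opposite strand. Neither has a CHR or CCAAT match. Ccnb2 has CHR matches 167 bases before and 4 bases after its start site and 3 CCAAT boxes at 87, 54 and 21 bases before it. Ccnb1 has 1 CHR match 42 bases before its start site and CCAAT boxes at 99 and 67 bases before it, and no E2F match was found in either cyclin B promoter.

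Of the 42 members, 33 matched an entry by symbol, with 35 promoters in all because Mcm7 and Uhrf1 have 2 each. Of these, 20 start at the gene's first base in the tables and 15 start 9 to 976 bases after it. Kif20a, Ccna2, Ccne2, Tpx2, Stmn1, Gins2, Aurkb, Mcm4 and Ccnd1 are named only. An E2F match stood in 7 of 17 S-phase promoters (41.2%; Mcm3, Mcm5, Mcm6, Mcm7, Cdt1, Cdc6 and Uhrf1), in 1 of 18 mitotic promoters (5.56%; Cdk1) and in 2.26% of all 32851 promoters of the table. A CHR match stood in 16 of 18 mitotic promoters (88.9%; not Nusap1 or Bub1), in 6 of 17 S-phase promoters (35.3%) and in 27.6% of all promoters. CCAAT stood in 16 of 18 mitotic promoters (88.9%), 11 of 17 S-phase promoters (64.7%) and 37.4% of all promoters. These are matches of letters, with no measurement of binding, and no overlap between motifs was searched for.

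Transcripts of both classes were present in every sample. Over the 9 samples, the mean level of an S-phase member ran from 6.06 TPM for Ccne2 to 375 TPM for Pcna, with a median of 44.6 TPM. The 6 Mcm genes, whose products form 1 ring, lay close together, with means of 46.7 TPM for Mcm2 to 89.1 TPM for Mcm6. Mitotic members were lower, from 2.03 TPM for the kinetochore gene Cenpf to 101 TPM for Stmn1, with a median of 12.9 TPM. Stmn1 encodes stathmin, which takes microtubules apart. The 19 S-phase members together made up 1022 to 1443 TPM of a sample and the 23 mitotic members 267 to 670 TPM.

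**Figure D1:**
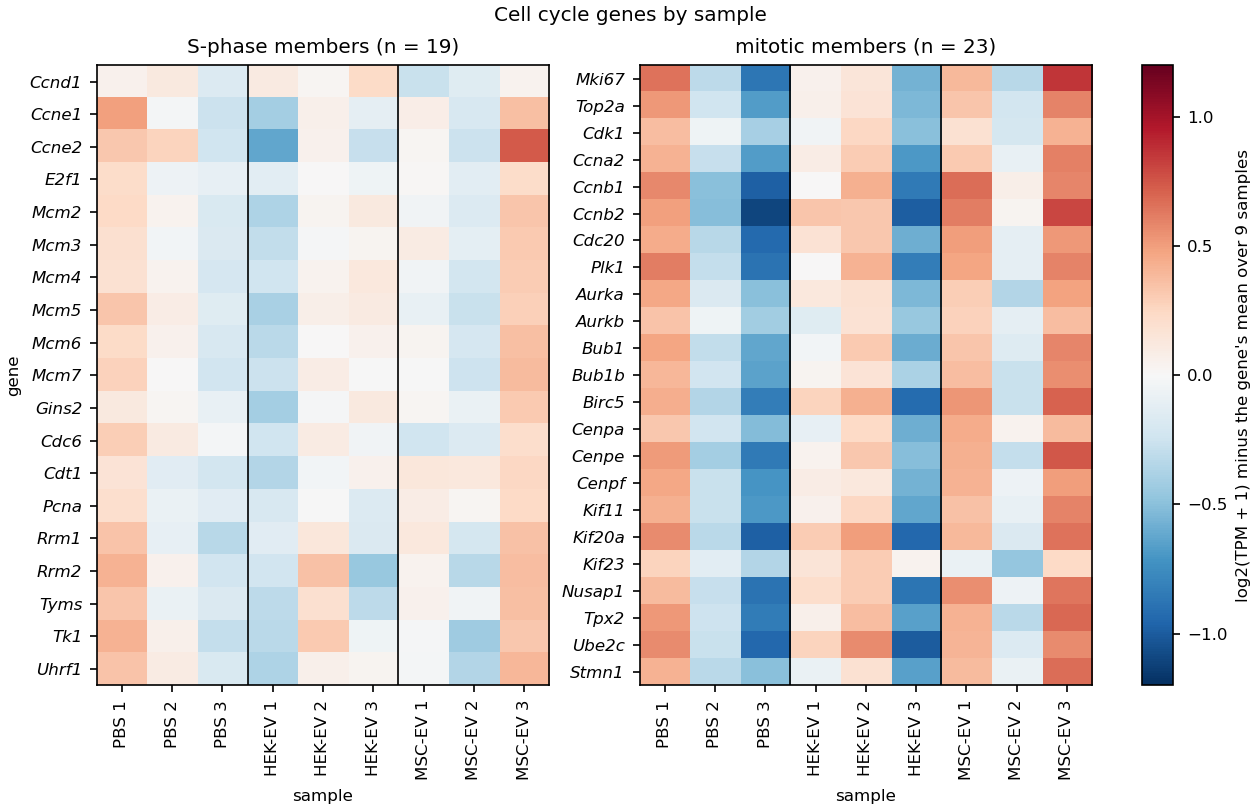
Each row is a gene and each column a sample; colour is log2(TPM + 1) minus the gene's own mean over the 9 samples, with S-phase members on the left and mitotic members on the right. The mitotic rows share 1 column pattern, with PBS 3 the lowest PBS sample and HEK-EV 3 the lowest HEK-EV sample in all 23, while the S-phase rows are paler and HEK-EV 1, not HEK-EV 3, is the lowest HEK-EV sample in 16 of 19.

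Levels of most members were spread widely between samples of a group. Mki67, the Ki-67 protein that coats mitotic chromosomes and marks dividing cells in pathology, read 48.2, 24.2 and 16.2 TPM in PBS 1, 2 and 3, 31.6, 33.8 and 20.2 TPM in HEK-EV 1, 2 and 3, and 40.2, 24.0 and 55.9 TPM in MSC-EV 1, 2 and 3. All groups overlapped, and the highest PBS sample had 2.97 times the level of the lowest. Mki67 was added to the named genes after its values were seen. The highest sample of a group over its lowest had a median of 2.5 in PBS, 2.05 in HEK-EV and 1.69 in MSC-EV over the mitotic members, and of 1.35, 1.33 and 1.45 over the S-phase members. In a bulk sample, fewer dividing cells and less of these transcripts per cell cannot be told apart.

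Samples of a group varied more in these genes than in most. The within-group standard deviation (SD) of log2(TPM + 1) had a median of 0.13 over all 13820 genes tested, 0.245 over the S-phase members and 0.482 over the mitotic members. Ranked among all genes tested, the mitotic members lay between percentile 87.5 for Kif23 and percentile 99.1 for Ube2c. The S-phase members lay between percentile 53.3 for Ccnd1 and percentile 94.8 for Ccne2. Kif23, a motor of the cleavage furrow, had the smallest spread of the mitotic members, and Ube2c, the enzyme that feeds the anaphase promoting complex, the largest.

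The mitotic members varied across the samples as a block. All 23 were highest in PBS 1 and lowest in PBS 3 among the PBS samples, as were 18 of the 19 S-phase members (not Ccnd1), against 37.6% of all genes tested. All 23 were lowest in HEK-EV 3 among the HEK-EV samples, where only Rrm1 and Rrm2 of the S-phase members were lowest, against 28% of all genes. HEK-EV 1 was the lowest HEK-EV sample for 16 of 19 S-phase members (not Ccnd1, Rrm1 or Rrm2) and for 0 of 23 mitotic members, against 40.6% of all genes. MSC-EV 2 was the lowest MSC-EV sample for 23 of 23 mitotic and 17 of 19 S-phase members (not Ccnd1 or Cdc6), against 45.5% of all genes. MSC-EV 3 was the highest for 21 of 23 mitotic (not Ccnb1 or Cenpa) and 19 of 19 S-phase members, against 50.9% of all genes. These orderings were chosen after the values were seen and carry no test.

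**Figure D2:**
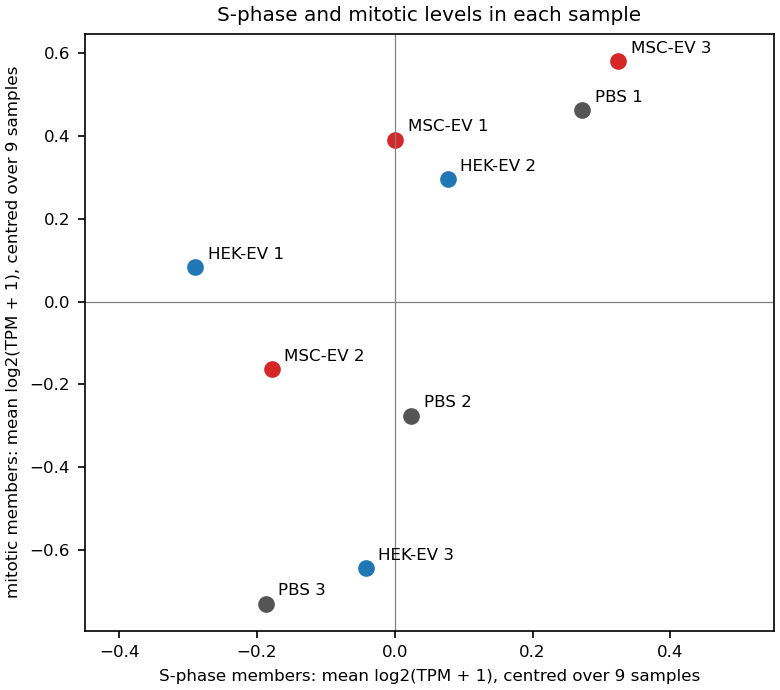
Each point is a sample; the horizontal axis is the mean of log2(TPM + 1) over the 19 S-phase members and the vertical axis that over the 23 mitotic members, both centred on the 9 samples. The vertical spread is wider than the horizontal, and HEK-EV 1 and HEK-EV 3 lie on opposite sides of the diagonal.

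The classes parted within the HEK-EV group. Summed over the class, the S-phase members read 1402, 1190.1 and 1050.4 TPM in PBS 1, 2 and 3, 1022, 1237 and 1172 TPM in HEK-EV 1, 2 and 3, and 1201, 1089 and 1443 TPM in MSC-EV 1, 2 and 3. The mitotic members read 603, 356 and 267 TPM in PBS, 454, 529.9 and 278 TPM in HEK-EV, and 568, 384 and 669.8 TPM in MSC-EV, in the same order. HEK-EV 1 thus had the smallest S-phase sum of all 9 samples beside a mitotic sum in the middle of the range, and HEK-EV 3 had a low mitotic sum beside an S-phase sum in the middle. The SD of the class mean of log2(TPM + 1) within groups was 0.226 for the S-phase and 0.501 for the mitotic members. The summed level was 1214 ± 177 TPM in PBS, 1143 ± 110.3 TPM in HEK-EV and 1244 ± 181 TPM in MSC-EV for the S-phase members (SD, n = 3 per group), and 409 ± 174 TPM, 421 ± 129 TPM and 541 ± 145 TPM for the mitotic members.

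The licensing genes Cdt1 and Cdc6 had the smallest p of the S-phase members in MSC-EV against PBS, with small differences in opposite directions. Cdt1 (chr8:122568015-122573130), the licensing factor destroyed once replication starts, read 44.2, 35.8 and 33.6 TPM in PBS 1, 2 and 3, 30.7, 38.5 and 40.7 TPM in HEK-EV 1, 2 and 3, and 43.3, 43.0 and 47.0 TPM in MSC-EV 1, 2 and 3. All MSC-EV samples lay above all HEK-EV samples, and PBS 1 lay within the MSC-EV range. Cdc6 (chr11:98907709-98923942), the ATPase that loads the helicase with Cdt1, read 8.49, 7.32 and 6.57 TPM in PBS, 5.56, 7.24 and 6.48 TPM in HEK-EV and 5.55, 5.89 and 7.91 TPM in MSC-EV. Its groups overlapped throughout.

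The helicase itself, the sliding clamp and the nucleotide enzymes had group means close to each other, while their spread within groups ranked between percentile 53.3 for Pcna and 93.6 for Rrm2 among all genes tested. Mcm3 (chr1:20802966-20820312) read 79.5, 68.0 and 61.5 TPM in PBS, 56.5, 68.6 and 71.1 TPM in HEK-EV and 74.7, 64.0 and 86.4 TPM in MSC-EV. The other 5 Mcm genes followed the same order within PBS and MSC-EV. Pcna (chr2:132249286-132253180) read 431, 353 and 340.3 TPM in PBS, 327, 373 and 334 TPM in HEK-EV and 398, 380.1 and 442 TPM in MSC-EV. All MSC-EV samples lay above all HEK-EV samples, by a small margin. Rrm1 (chr7:102441695-102469771), the large subunit of ribonucleotide reductase, read 55.9, 40.9 and 34.6 TPM in PBS, 40.0, 48.4 and 38.8 TPM in HEK-EV and 48.1, 37.9 and 56.6 TPM in MSC-EV. Among the other nucleotide enzymes, group means were 34.5 to 39.1 TPM for Rrm2, the small subunit of the reductase, 7.06 to 8.64 TPM for the thymidylate synthase gene Tyms and 76.9 to 82.6 TPM for the thymidine kinase gene Tk1.

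Ccnd1 was the S-phase member that stood apart from the rest. Ccnd1 (chr7:144929931-144939937), the G1 cyclin that answers growth signals, read 139.7, 146 and 120.3 TPM in PBS, 145, 137 and 158 TPM in HEK-EV and 112, 122 and 139 TPM in MSC-EV. It was the only S-phase member for which PBS 1 was not the highest PBS sample and the only one with a higher HEK-EV than PBS mean log2 level. Ccne2 (chr4:11190433-11204779), a cyclin of the G1/S step, read 7.52, 7.22 and 4.76 TPM in PBS, 3.42, 6.04 and 4.62 TPM in HEK-EV and 5.92, 4.69 and 10.4 TPM in MSC-EV, the widest spread of the class. E2f1 varied least over all samples, with 1.29 times between its highest and lowest sample. Mean levels of Uhrf1, which acts in the maintenance of DNA methylation, were 32.8 to 37.3 TPM by group, of Gins2 22.2 to 25.3 TPM and of Ccne1 6.50 to 7.87 TPM.

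Among the mitotic members, Ccnb2 had the widest range, with 4.31 times between its highest and lowest of the 9 samples. Ccnb2 (chr9:70407689-70421554) read 16.8, 7.88 and 4.91 TPM in PBS 1, 2 and 3, 15.0, 14.8 and 5.39 TPM in HEK-EV 1, 2 and 3, and 18.4, 12.0 and 21.2 TPM in MSC-EV 1, 2 and 3. Ccnb1 (chr13:100778739-100786486) read 15.3, 6.76 and 4.57 TPM in PBS, 10.0, 13.8 and 5.07 TPM in HEK-EV and 16.4, 10.5 and 15.5 TPM in MSC-EV. For both B cyclins PBS 1 lay within the MSC-EV range, PBS 3 and HEK-EV 3 were about equally low, and every MSC-EV sample was above PBS 2 and PBS 3. Cdk1, their kinase, had group means of 11.2 to 13.2 TPM and Ccna2 of 18.9 to 25.5 TPM. Ccnb1 and Ccnb2 are the genes whose promoters are printed above with CHR and CCAAT matches.

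Genes of the exit from mitosis, the centromere and the spindle had the same shape. Cdc20 (chr4:118432901-118437343), the activator of the anaphase promoting complex, read 10.6, 5.79 and 3.49 TPM in PBS, 8.70, 9.70 and 4.73 TPM in HEK-EV and 11.2, 6.96 and 11.3 TPM in MSC-EV. Cenpa (chr5:30666877-30674837), the histone that marks the centromere, read 21.2, 14.2 and 11.4 TPM in PBS, 15.5, 20.0 and 10.8 TPM in HEK-EV and 23.1, 17.3 and 22.1 TPM in MSC-EV. Both had PBS 1 high, with PBS 3 and HEK-EV 3 low. Nusap1 (chr2:119618298-119650165), which bundles spindle microtubules, read 13.3, 8.06 and 4.96 TPM in PBS, 11.7, 12.6 and 4.98 TPM in HEK-EV and 15.2, 9.52 and 16.1 TPM in MSC-EV. Stmn1 (chr4:134468320-134473843) read 130.0, 77.5 and 68.3 TPM in PBS, 92.2, 110.3 and 61.7 TPM in HEK-EV and 127, 91.8 and 155 TPM in MSC-EV. In each of these 4 genes the lowest MSC-EV sample was below the highest PBS sample.

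**Figure D3:**
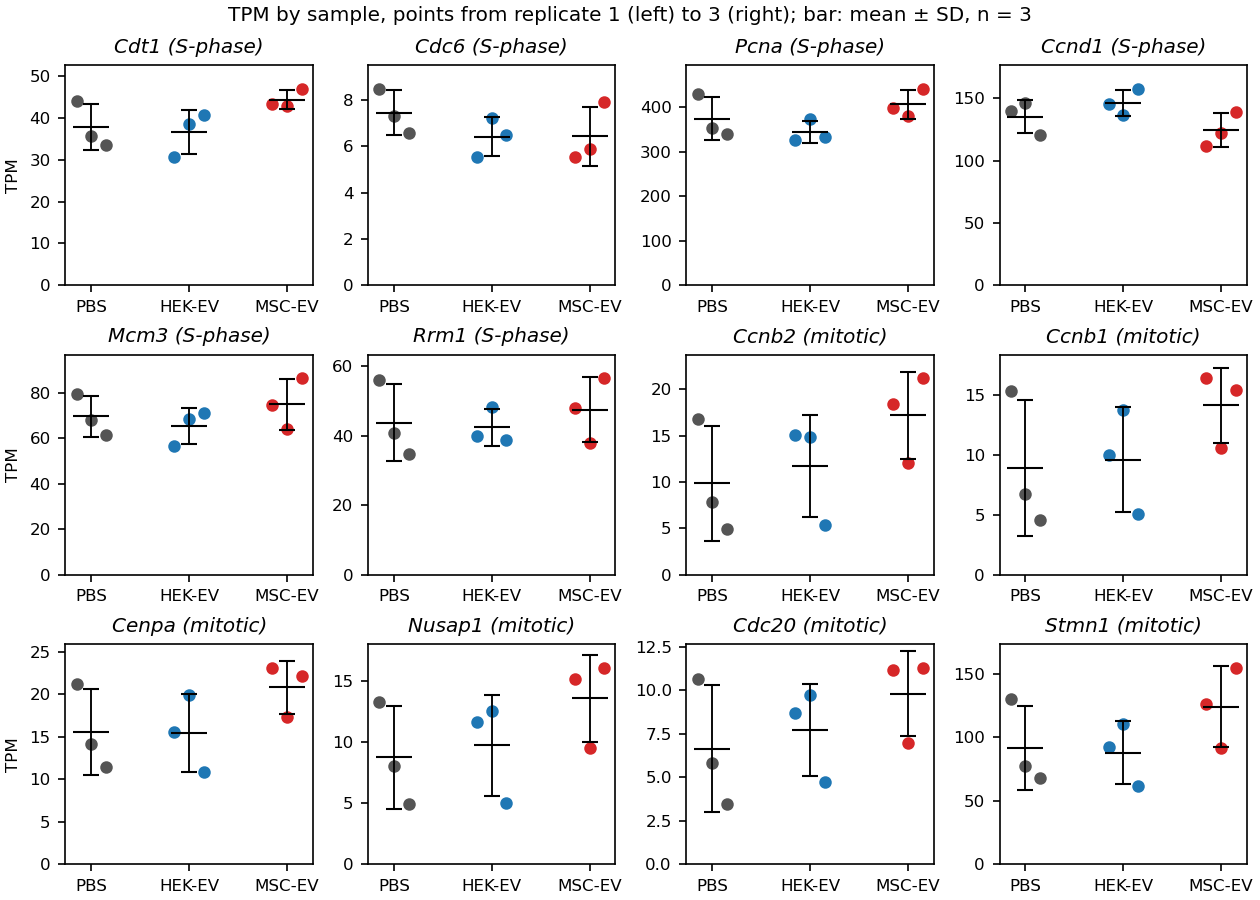
TPM of the 12 members with the smallest p in the comparison of MSC-EV with PBS, 6 per class; points are samples in the order of their replicate numbers, the long bar is the group mean and the whiskers its SD (n = 3). In the 6 mitotic panels PBS 1 lies within the MSC-EV range and PBS 3 is the lowest PBS sample, and the groups overlap.

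Kif23 was the exception among the mitotic members. Kif23 (chr9:61917277-61946810), which with its partners builds the central spindle for cytokinesis, read 37.1, 28.0 and 23.7 TPM in PBS, 34.1, 38.1 and 31.5 TPM in HEK-EV and 28.9, 21.8 and 36.3 TPM in MSC-EV. Like the other mitotic members it was lowest in PBS 3, HEK-EV 3 and MSC-EV 2 within their groups, but its HEK-EV samples were higher than those of MSC-EV in 7 of 9 sample pairs. The remaining kinases, checkpoint and motor genes followed the class. Group means were 10.6 to 14.4 TPM for the Polo-like kinase Plk1, 9.87 to 11.7 TPM for Aurka, 16.0 to 20.1 TPM for Aurkb and 22.4 to 32.9 TPM for Birc5, the survivin that holds Aurkb at centromeres. Bub1 and Bub1b, which delay anaphase until chromosomes are attached, had group means of 6.10 to 8.08 TPM and 15.1 to 19.5 TPM. Top2a, which untangles sister chromosomes, lay at 34.6 to 44.3 TPM, the motors Kif11 at 10.4 to 14.2 TPM and Kif20a at 7.93 to 11.1 TPM, Tpx2, the activator of Aurka on the spindle, at 13.2 to 17.8 TPM, and Ube2c at 22.3 to 29.5 TPM. The kinetochore genes Cenpe and Cenpf were the lowest, at 4.59 to 6.87 TPM and 1.74 to 2.60 TPM.

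MSC-EV samples had the highest mean mitotic level, but no member differed from PBS past the threshold. In log2(TPM + 1), 22 of 23 mitotic members (not Kif23) were higher in MSC-EV than in PBS, with a median difference of 0.46, and 13 of 19 S-phase members were higher, with a median of 0.02. Over all 13820 genes the median difference was 0.01. Of the 42 members, 0 passed an adjusted p of 0.05 in limma, which called 5.11% of all genes, and 0 were under 0.05 before adjustment, where 23% of all genes were. No member had groups without overlap, against 26% of all genes. Ccnb2 had the largest difference, 0.86 (standard error, SE, 0.45), with MSC-EV higher in 8 of 9 sample pairs and an adjusted p of 0.294 in limma.

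The next 5 mitotic members by p had adjusted p of 0.324 to 0.387 in limma. Their differences between MSC-EV and PBS were 0.74 (SE 0.41) for Ccnb1, 0.43 (SE 0.25) for Cenpa, 0.64 (SE 0.38) for Nusap1, 0.58 (SE 0.35) for Cdc20 and 0.46 (SE 0.29) for Stmn1. None of these differences reached 2 SE. Over the 18 alternatives the differences ran from 0.20 to 1.99 for Ccnb2, 0.20 to 1.81 for Ccnb1, 0.09 to 0.996 for Cenpa, 0.04 to 1.52 for Nusap1, 0.10 to 1.55 for Cdc20 and 0.02 to 1.15 for Stmn1. Among S-phase members, Cdt1 was higher by 0.23 (SE 0.12) with an adjusted p of 0.294 in limma, and Pcna by 0.12 (SE 0.10), Mcm3 by 0.10 (SE 0.13) and Rrm1 by 0.12 (SE 0.19). Cdc6 had a difference of -0.19 (SE 0.15) and Ccnd1 of -0.12 (SE 0.10). These 5 had adjusted p of 0.485 to 0.755 in limma. Over the 18 alternatives the differences ran from 0.16 to 0.48 for Cdt1, 0.05 to 0.36 for Pcna and -0.002 to 0.37 for Mcm3. Those of Rrm1 ran from -0.09 to 0.61, of Cdc6 from -0.33 to -0.01 and of Ccnd1 from -0.21 to -0.01.

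The mitotic median depended on single samples and on terms added to the fit. It was 0.77 without PBS 1 and 0.17 without PBS 3, and 0.31 without MSC-EV 3. With a term for the 4 samples that held more than 0.002% of their TPM in pancreatic acinar genes (HEK-EV 1, HEK-EV 2, MSC-EV 1 and MSC-EV 3), the median was -0.05, and with depth as a covariate it was 1.30. Relative depth was 6.585 to 6.845 in MSC-EV. This lay above all PBS (5.278 to 6.317) and HEK-EV (6.25 to 6.47) samples, so depth and MSC-EV are largely confounded in the fit with depth. The acinar term marks no PBS sample, so it is partly confounded with the vesicle groups. Within those groups it marks the samples with the higher mitotic sums. The S-phase median lay between -0.14 without MSC-EV 3 and 0.15 without MSC-EV 2, and was -0.08 with the acinar term and 0.35 with depth.

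HEK-EV and PBS differed in no member and in no gene at the threshold. Of the S-phase members, 18 of 19 were lower in HEK-EV than in PBS (not Ccnd1), with a median log2 difference of -0.11, and of the mitotic members 18 of 23 were higher, with a median of 0.08; the median over all genes was 0.03. In limma, 0 members and 0% of all genes passed the adjusted threshold, 0 members and 3.58% of all genes were under 0.05 before adjustment, and groups without overlap stood at 0 members and 7.81% of all genes. The S-phase members of smallest p were Ccne2 with -0.40 (SE 0.27) and Cdc6 with -0.19 (SE 0.15). The mitotic members of smallest p were Kif23 with 0.24 (SE 0.19) and Cdc20 with 0.25 (SE 0.35). All had an adjusted p of 0.999 in limma. Over the 18 alternatives Ccne2 ran from -0.61 to -0.22 and Cdc6 from -0.27 to -0.09. Kif23 ran from -0.01 to 0.51 and Cdc20 from -0.23 to 0.79, so both changed sign. The direction of the mitotic median rested on single samples: it was 0.41 without PBS 1, -0.20 without PBS 3, -0.01 without HEK-EV 1, -0.11 without HEK-EV 2, 0.03 without PBS 2, 0.32 without HEK-EV 3, -0.41 with the acinar term and 0.54 with depth as a covariate. The S-phase median was -0.01 without PBS 1, -0.0004 without HEK-EV 1, -0.21 without PBS 3, -0.19 with the acinar term and 0.05 with depth.

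**Figure D4:**
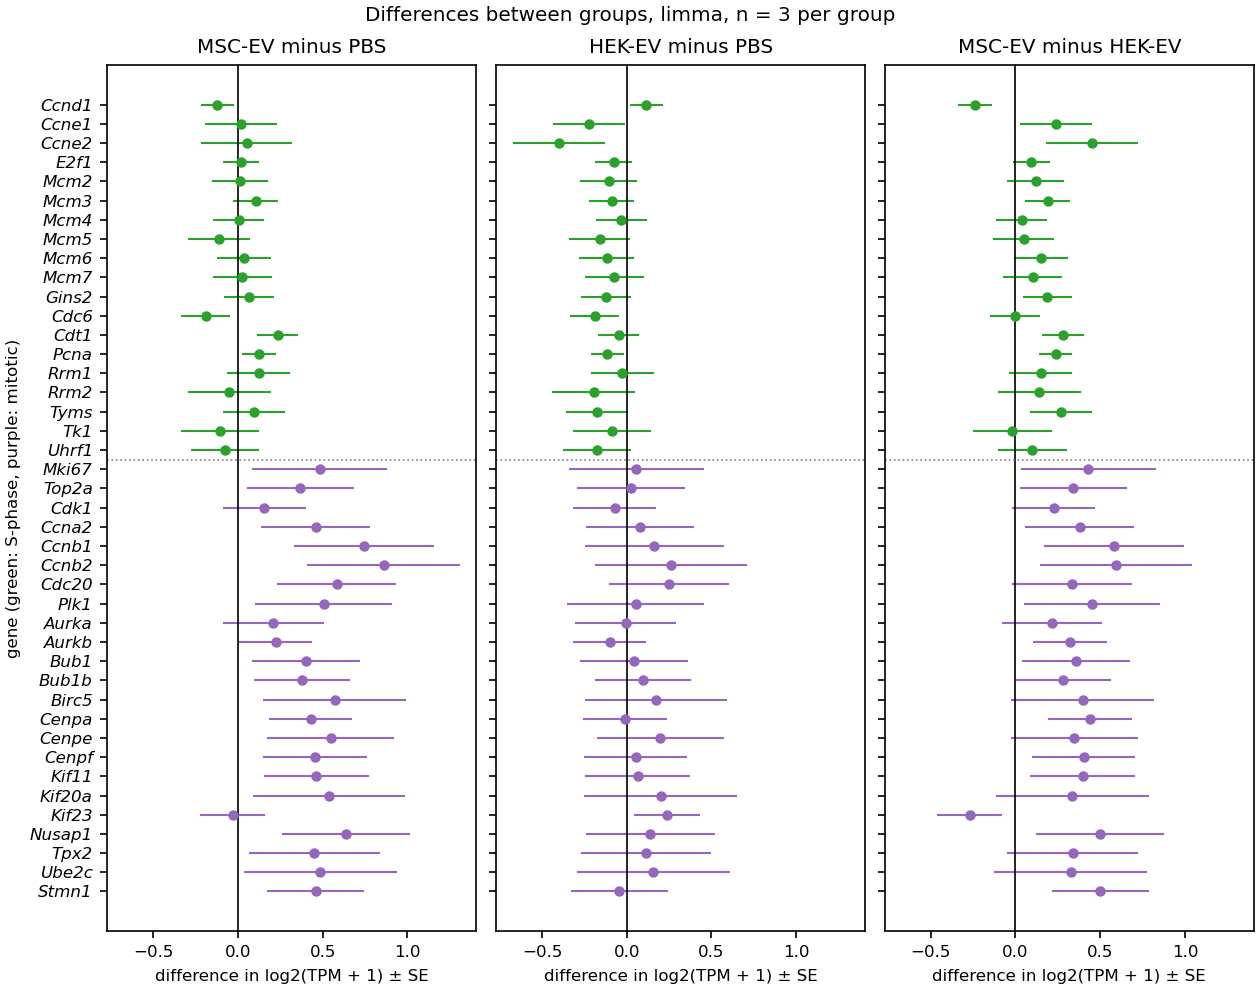
Difference between group means in log2(TPM + 1) for each of the 42 members, with bars of 1 SE from limma; S-phase members are green and mitotic members purple. Most mitotic points lie right of 0 in both comparisons that involve MSC-EV, with wide bars, and no member passed the threshold in any panel.

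The members of smallest p between the vesicle sources were 3 S-phase members, while the largest difference was that of the mitotic member Ccnb2, 0.59 (SE 0.45). Pcna was higher in MSC-EV than in HEK-EV by 0.24 (SE 0.10) and Cdt1 by 0.28 (SE 0.12), each in 9 of 9 sample pairs, while Ccnd1 had a difference of -0.24 (SE 0.10), with MSC-EV lower in 8 of 9 pairs. The adjusted p in limma was 0.185 for Pcna, 0.204 for Cdt1 and 0.183 for Ccnd1, so none passed. These 3 of 42 members were the ones under 0.05 before adjustment, against 23.3% of all genes, and the 2 with groups that did not overlap, Pcna and Cdt1, stand against 30.1% of all genes. No member passed the adjusted threshold, which 5.91% of all genes did. With depth as a covariate, which separates MSC-EV from the other groups, Pcna alone passed, with a difference of 0.34.

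Both classes leaned towards MSC-EV in this comparison. Of the mitotic members 22 of 23 were higher in MSC-EV than in HEK-EV (not Kif23), with a median difference of 0.36, and of the S-phase members 16 of 19 (not Ccnd1, Cdc6 or Tk1), with a median of 0.14, while the median over all genes was -0.02. Cenpa, with 0.44 (SE 0.25), and Stmn1, with 0.50 (SE 0.29), had the smallest p of the mitotic members, and their adjusted p in limma was 0.324 and 0.332. The mitotic median was 0.12 without HEK-EV 3 and 0.20 without MSC-EV 3, and it was 0.57 without HEK-EV 2 or without MSC-EV 2. The S-phase median was 0.03 without HEK-EV 1, 0.0045 without MSC-EV 3 and 0.28 without MSC-EV 2, and depth as a covariate gave 0.76 for the mitotic and 0.26 for the S-phase members. The comparisons of the vesicle groups with PBS share the PBS samples, so their values are given side by side only.

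The wider replication machinery had small median differences, and those of other mitotic genes were larger in both comparisons that involve MSC-EV. Of 34 other replication genes, such as polymerase and origin complex subunits, 0 were called in any comparison in limma. Of all genes, 5.11% were called in MSC-EV against PBS, 0% in HEK-EV against PBS and 5.91% in MSC-EV against HEK-EV. The 34 genes had median differences of 0.04 for MSC-EV and -0.08 for HEK-EV against PBS and of 0.12 for MSC-EV against HEK-EV, where 32 of 34 were higher. Dbf4, the activating subunit of the Cdc7 kinase that fires origins, had differences of 0.34 (SE 0.15) from PBS and 0.33 (SE 0.15) from HEK-EV in MSC-EV, with adjusted p of 0.206 and 0.213. It was the 1 gene of the list under 0.05 before adjustment in each of those comparisons, against 23% and 23.3% of all genes. In HEK-EV against PBS there were 0, against 3.58% of all genes.

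Of 40 other mitotic genes, 0 were called either, against 5.11% of all genes in MSC-EV against PBS and 5.91% in MSC-EV against HEK-EV. Of the 40, 39 were higher in MSC-EV than in PBS, with a median of 0.27. The exception was Pttg1, the securin that holds back separase until anaphase, with -0.29 (SE 0.10) and an adjusted p of 0.11 in limma. It was the 1 gene of the list under 0.05 before adjustment, against 23% of all genes, and it was called lower without PBS 1 (adjusted p = 0.0149 in limma). With depth as a covariate, which is largely confounded with MSC-EV, Aspm, Espl1, Kif4 and Spc25 were called higher than in PBS and Pttg1 lower. Their median was 0.05 in HEK-EV against PBS, with 28 of 40 higher, and 0.30 in MSC-EV against HEK-EV, with 38 of 40 higher. Cenpk, a kinetochore gene, was under 0.05 before adjustment in both, with -0.36 (SE 0.14) and 0.47 (SE 0.14) and adjusted p of 0.999 and 0.0847 in limma. Of all genes, 3.58% and 23.3% were under 0.05 before adjustment in those comparisons. The summed level of these 40 genes was 686, 515 and 438 TPM in PBS 1, 2 and 3, 573, 645 and 438 TPM in HEK-EV 1, 2 and 3, and 661, 506 and 739.7 TPM in MSC-EV 1, 2 and 3, the order of the mitotic members within each group.

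The pathway genes called were regulators of the resting state and of entry, and all were lower in MSC-EV. Ccnd3, a D cyclin that is prominent in blood cells, read 108, 146 and 169 TPM in PBS, 145, 128 and 139 TPM in HEK-EV and 83.9, 93.8 and 87.4 TPM in MSC-EV. It was lower in MSC-EV, with a log2 difference of -0.65 from PBS (SE 0.14, adjusted p = 0.0344 in limma) and of -0.63 from HEK-EV (SE 0.14, adjusted p = 0.0338), and every MSC-EV sample was below every other sample. Ccnd2, its relative, read 16.2, 25.7 and 23.8 TPM in PBS, 24.7, 22.7 and 25.7 TPM in HEK-EV and 14.8, 11.5 and 14.5 TPM in MSC-EV. It was lower in MSC-EV than in HEK-EV, with a difference of -0.80 (SE 0.16, adjusted p = 0.027), and differed from PBS by -0.63 (SE 0.16, adjusted p = 0.0547). E2f2 differed from PBS by -0.50 (SE 0.11, adjusted p = 0.0398) at 21.2 to 26.8 TPM in MSC-EV against 30.0 to 38.8 TPM, and from HEK-EV by -0.41 (SE 0.11, adjusted p = 0.0635).

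Cdk4, the kinase partner of the D cyclins, lay on the other side and did not pass. It read 148, 124 and 122 TPM in PBS, 125, 138 and 133 TPM in HEK-EV and 163, 165 and 159 TPM in MSC-EV. Its difference was 0.31 (SE 0.08, adjusted p = 0.0553 in limma) from PBS and 0.30 (SE 0.08, adjusted p = 0.0563) from HEK-EV, with MSC-EV higher in 9 of 9 sample pairs in both. Of all genes, 26% had groups without overlap in MSC-EV against PBS and 30.1% in MSC-EV against HEK-EV. With FPKM in place of TPM it was called higher in both comparisons (adjusted p = 0.0431 and 0.0451), as with median-of-ratios scaling (0.0455 and 0.0432), where Ccnd3, E2f2 and Btg1 were not called against PBS. Cdk4 was named after its values were seen.

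Of the 14 entry regulators, these were the ones called: 2 between MSC-EV and PBS, 2 between the vesicle groups and 0 between HEK-EV and PBS, where 0 were under 0.05 before adjustment. Those called were lower in MSC-EV; of all genes, 3.25% were called lower and 1.86% higher in MSC-EV against PBS, and 4.4% lower and 1.51% higher in MSC-EV against HEK-EV. Of the 17 inhibitors, 15 were tested (Cdkn2a and Cdkn2b were under the minimum), and 1 was called, Btg1, which restrains growth in resting leukocytes. A count of 1 in 15 is near the 5.11% of all genes called in that comparison, MSC-EV against PBS. In MSC-EV against HEK-EV, 0 were called in limma, 13 of 15 had lower means in MSC-EV with a median of -0.20, and 7 were under 0.05 before adjustment (Cdkn1b, Cdkn2d, Btg1, Btg2, Gadd45a, Trp53 and Mdm2), against 23.3% of all genes. Btg1 fell by 0.46 (SE 0.11) in MSC-EV against PBS with an adjusted p of 0.046 in limma, at 112 to 118 TPM against 130.2 to 185 TPM. Cdkn2d, a kinase inhibitor, had differences of -0.60 (SE 0.17, adjusted p = 0.0744) from PBS and -0.65 (SE 0.17, adjusted p = 0.0559) from HEK-EV. In HEK-EV against PBS, Gadd45a had 0.61 (SE 0.14) and Ccng1 0.27 (SE 0.09), both with adjusted p of 0.999.

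The calls of these regulators depended on single samples, while their direction was the same under the alternatives run. Some of these alternatives cannot change a difference, among them another filter, the replicate block and leaving out a sample of the group not compared. With each of the 9 samples left out in turn, Ccnd3 against PBS was called in 3 of 9 fits (lost without PBS 2, PBS 3, HEK-EV 2 or any 1 of the MSC-EV samples), with adjusted p of 0.0016 to 0.145 in limma. E2f2 and Btg1 were called in 1 of 9, without PBS 1, with adjusted p of 0.00675 to 0.169 and 0.00202 to 0.178. Between MSC-EV and HEK-EV, Ccnd2 was called in 4 of 9 fits (lost without MSC-EV 1, MSC-EV 2 or any 1 of the HEK-EV samples) and Ccnd3 in 3 of 9 (lost without any 1 of the HEK-EV or MSC-EV samples), with adjusted p of 0.00506 to 0.0962 and 0.00506 to 0.124. Under the 9 other alternatives, Ccnd3, E2f2 and Btg1 against PBS were each called in 3, and between the vesicle groups Ccnd2 was called in 7 and Ccnd3 in 4.

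Monocyte genes were also lower in MSC-EV, and their order within groups matched that of these regulators only in part. The 6 monocyte genes summed to 5524, 10866 and 11324 TPM in PBS 1, 2 and 3, 7821, 7030.1 and 8898 TPM in HEK-EV 1, 2 and 3, and 3402, 3928 and 4172 TPM in MSC-EV 1, 2 and 3. As for Ccnd3, PBS 1 was the lowest PBS sample and every MSC-EV sample was below every other sample. PBS 1 was also the lowest PBS sample in mature neutrophil sum. Within HEK-EV, Ccnd2 had the order of the monocyte sums. E2f2 was lowest in HEK-EV 3 (31.2 TPM), which had the highest monocyte sum of that group. All 6 were lower in MSC-EV than in PBS, with a median log2 difference of -1.35, and 4 were called lower (Ly6c2, Vcan, Chil3 and Plac8), against 3.25% of all genes. From HEK-EV the median was -1.11, with 3 of 6 called lower (Vcan, Chil3 and F13a1), against 4.4% of all genes. With 1 sample left out, those 3 were called in 5, 3 and 2 of 9 fits, and all lost the call without HEK-EV 1, HEK-EV 2, MSC-EV 1 or MSC-EV 2. The part of monocyte content in the levels of Ccnd3, Ccnd2, E2f2 and Btg1 was not tested.

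Other cell types moved across the same samples. The summed level of the 9 mature neutrophil genes was 3266, 4359 and 5919 TPM in PBS 1, 2 and 3, 5377, 5281 and 7292 TPM in HEK-EV 1, 2 and 3, and 4043, 3605 and 3212 TPM in MSC-EV 1, 2 and 3. Within PBS its order was the reverse of that of the mitotic members, and HEK-EV 3, the lowest HEK-EV sample for all 23 mitotic members, was the highest in neutrophil genes. MSC-EV followed in part: MSC-EV 3, with the highest mitotic sum, had the lowest neutrophil sum. MSC-EV 2, with the lowest mitotic sum, had the middle neutrophil sum. MSC-EV 1 had the highest neutrophil sum beside a mitotic sum of 568 TPM. In each group the sample with the highest mitotic sum (PBS 1, HEK-EV 2 and MSC-EV 3) thus had the lowest neutrophil sum. In HEK-EV this rested on a small margin, 5281 against 5377 TPM. By the mean log2(TPM + 1) of the 9 genes, HEK-EV 1 (7.60) was below HEK-EV 2 (7.64). The part of neutrophil content in the mitotic levels was not tested. The 8 macrophage genes summed to 8835, 7861 and 7372 TPM in PBS, in the order of the mitotic members, to 7664, 8515 and 8731 TPM in HEK-EV 1, 2 and 3 and to 9856, 8283 and 9190.3 TPM in MSC-EV 1, 2 and 3. The order did not hold in the vesicle groups, where HEK-EV 3 was the highest HEK-EV sample in macrophage genes and MSC-EV 1 the highest of MSC-EV.

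**Figure D5:**
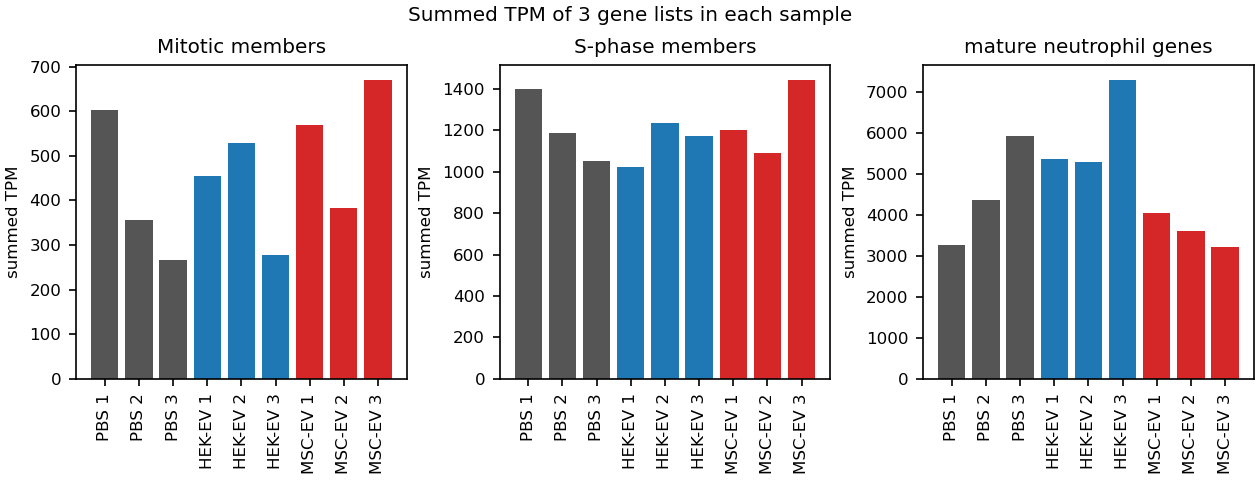
Bars are the summed TPM of the 23 mitotic members, the 19 S-phase members and 9 mature neutrophil genes in each sample, on axes that start at 0. PBS 3 and HEK-EV 3 have the lowest mitotic sums, 267 and 278 TPM, and the highest neutrophil sums of their groups, 5919 and 7292 TPM. In MSC-EV the lowest mitotic sum, in MSC-EV 2, stands beside the middle neutrophil sum. The highest mitotic sum of each group stands beside its lowest neutrophil sum, in HEK-EV by a small margin (5281 against 5377 TPM).

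Progenitors and other cell types that can divide were also looked for. Of 11 genes of neutrophil progenitors, 6 passed the filter and the list summed to 21.5 to 50.5 TPM. Elane, Mpo, Ctsg and Chil5 stayed under 1 TPM in every sample and Ms4a3 was listed at 0 in all 9, while Ngp reached 29.2 TPM and Prtn3 10.5 TPM. The 6 tested split, with Ltf, Camp and Ngp higher in MSC-EV than in PBS in 9 of 9 sample pairs, and Fcnb, Cebpe (-0.71) and Prtn3 (-0.92) lower in 9, 9 and 8 of 9. In that comparison 26% of all genes had groups without overlap, which is 9 of 9 pairs. Of the list, Ltf was called higher (0.87, adjusted p = 0.0348 in limma) and Fcnb lower (-1.25, adjusted p = 0.0492). Of 16 genes of T, NK and B lymphocytes, 7 passed, and the list summed to 30.2 to 43.8 TPM in PBS, 32.9 to 50.8 TPM in HEK-EV and 40.5 to 58.1 TPM in MSC-EV, with Cd3e at 0 to 0.54 TPM and Cd79b at 10.3 to 22.1 TPM. All 7 were higher in MSC-EV than in PBS, with a median of 0.53. Of these, 5 were under 0.05 before adjustment and Nkg7 was called (0.70, adjusted p = 0.0424 in limma, higher in 9 of 9 pairs). Within each group the lymphocyte sums had the order of the mitotic sums. They were 43.8, 32.7 and 30.2 TPM in PBS 1, 2 and 3 and 35.7, 50.8 and 32.9 TPM in HEK-EV 1, 2 and 3. In MSC-EV 1, 2 and 3 they were 57.1, 40.5 and 58.1 TPM. By the mean log2(TPM + 1) of the 7 tested genes the order did not hold in HEK-EV. There HEK-EV 1 (2.09) was below HEK-EV 3 (2.11). The part of lymphocytes in the mitotic sums was not tested. Of 8 erythroid genes, 3 passed, with a list sum of 21.5 to 37.7 TPM. Of 6 biliary genes, 5 passed and 3 of them (Epcam, Krt19 and Sox9) were called higher in MSC-EV than in PBS. Nearly all of this list's TPM was Spp1, which macrophages also make, at 732 to 1702 TPM in PBS and 1754 to 2336 TPM in MSC-EV, while Krt19 reached 8.50 TPM and Epcam 4.64 TPM. In that comparison 1.86% of all genes were called higher, 3.25% lower, and 23% were under 0.05 before adjustment. Pancreatic acinar genes took 0.00133% to 0.0015% of the TPM in PBS, 0.00391%, 0.11% and 0.00154% in HEK-EV 1, 2 and 3 and 0.0148%, 0.00138% and 0.314% in MSC-EV 1, 2 and 3, so that the vesicle samples above 0.002% were those with the higher mitotic sums of their groups.

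Marker genes of other liver cells mostly did not pass in MSC-EV against PBS. The S-phase sums share their lowest sample in each group, PBS 3, HEK-EV 1 and MSC-EV 2, with the macrophage, Kupffer cell and endothelial sums. Of the hepatocyte genes tested, 9 of 9 had higher means in MSC-EV than in PBS and 2 were called (Apoa1 and Cyp2e1), against 1.86% of all genes called higher, with list sums of 378 to 513 TPM against 208 to 281 TPM. The 7 endothelial genes had lower means in MSC-EV, with 7 under 0.05 before adjustment, against 23% of all genes, and 0 called in limma, and sums of 368, 338 and 295 TPM in PBS 1, 2 and 3, 198, 325 and 429 TPM in HEK-EV 1, 2 and 3 and 175, 123 and 246 TPM in MSC-EV 1, 2 and 3. The 6 Kupffer cell genes had lower means with 0 called and 2 under 0.05 before adjustment, and sums of 3129.75, 2953 and 2604 TPM in PBS, 1775, 2929 and 3664 TPM in HEK-EV and 1854, 1460.2 and 2538.5 TPM in MSC-EV. Of 5 stellate and fibroblast genes tested, 4 were higher, with a median of 0.78 and 0 under 0.05 before adjustment. Their list summed to 22.0, 12.3 and 16.85 TPM in PBS, 13.6, 16.9 and 20.4 TPM in HEK-EV and 33.1, 16.2 and 21.7 TPM in MSC-EV. Of 8 dendritic cell genes, Flt3 and Ccr7 were under 0.05 before adjustment, both higher, and 0 were called. With 1 sample left out, the marker genes called in MSC-EV against PBS were called in 0 of 9 fits (Nkg7) to 6 of 9 (Epcam). Each lost the call without PBS 2, without PBS 3 and without MSC-EV 2.

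Marker genes also differed between MSC-EV and HEK-EV, where both classes leaned towards MSC-EV. Of the 9 hepatocyte genes tested, 4 were called higher in MSC-EV (Alb, Apoa1, Serpina1a and Hpx; median 0.88), and of the 5 biliary genes 3 were (Epcam, Krt19 and Sox9), against 1.51% of all genes called higher. Of the 9 mature neutrophil genes 7 were under 0.05 before adjustment, against 23.3% of all genes, with a median of -0.59. Csf3r of that list was called lower, against 4.4% of all genes. Of the 7 lymphocyte genes tested, 6 were higher in MSC-EV, with a median of 0.44, and 4 were under 0.05 before adjustment. Nkg7 of these was called higher (0.66, adjusted p = 0.0468 in limma). The 7 endothelial genes had lower means in MSC-EV, with a median of -0.80, 6 under 0.05 before adjustment and 0 called. Cd68 of the macrophage genes was called higher (0.33). Of the neutrophil progenitor genes, Ltf was called higher (1.20) and Fcnb lower (-1.26). With 1 sample left out, the genes called in this paragraph were called in 1 to 5 of 9 fits. Each lost the call without HEK-EV 1, HEK-EV 2, MSC-EV 1 or MSC-EV 2. The part of these cells in the cell cycle levels was not tested.

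Some members share sequence or ground with other genes. Copies or pseudogenes by name exist for Pcna, Tyms, Ccnb1, Ccnb2 and Stmn1. In the tables' coordinates, Ccnd1, Ccne2, E2f1, Mcm7, Gins2, Tk1, Top2a, Ccna2, Cdc20, Aurka, Kif11, Kif20a, Nusap1 and Tpx2 overlap another annotated gene. The library kit keeps strand, but the sources used here do not say whether the counting did, so the levels of these genes are less certain.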

How the data were processed

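RNA of CD11b+ liver cells was taken up in Trizol, and libraries came from a stranded mRNA kit (TruSeq), per the labels' protocols. The submitters' processing notes name HISAT2 2.1.0, StringTie and mm10. Each of the 9 samples had 1 gene table with TPM, FPKM and coverage as deposited by the authors. Coverage is a signal per base, per the file headers. FPKM values deposited by the authors were used as an alternative to TPM. The gene name column was blank, so gene IDs were matched to the RefSeq table of GRCm38.p6, where 45679 of 45777 (99.79%) had a symbol and 96.4% had the same start and end, and rows of a gene were summed. Coordinates are those of the tables.

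Group differences in log2(TPM + 1) came from limma 3.58.1 (R 4.3.3), with all 9 samples in 1 fit, a trended prior and no covariate. Genes that reached 1 TPM in at least 3 samples were tested, and p-values were adjusted by Benjamini-Hochberg over all of them, two-sided, with a threshold of 0.05. "Called" means an adjusted p under that threshold. With 3 samples against 3, exact permutation cannot reach that threshold and was not used. The fit was tested on simulated data. Python 3.11.15 with pandas 2.3.3, numpy 2.4.6 and matplotlib 3.10.9 did the rest.

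The members and the lists of other pathway genes and cell type markers were chosen with earlier results of these data known. The members given with every sample's value were the 6 of smallest p in each class in MSC-EV against PBS and the 2 of smallest p in each class in the other comparisons. Pathway genes outside the members were named where called or among the 2 of smallest p of their list. The alternatives were another pseudocount (0.1), no filter, a minimum of 5 TPM, FPKM, median-of-ratios scaling, only the 6 samples compared, a replicate block, acinar transcripts as a term, depth as a covariate and leaving out each sample.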

Additional observations from a re-analysis of the deposited data

Results flagged for a closer look

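Ccnd2 and Ccnd3, the D cyclins that are not members, differed between the vesicle groups by the test of that difference. Ccnd3 also differed between MSC-EV and PBS, where Ccnd2 did not pass (adjusted p = 0.0547 in limma). The log2 difference of MSC-EV minus HEK-EV was -0.80 for Ccnd2 (SE 0.16, adjusted p = 0.027 in limma) and -0.63 for Ccnd3 (SE 0.14, adjusted p = 0.0338), with all MSC-EV samples below all HEK-EV samples. With 1 sample left out, the adjusted p ran from 0.00506 to 0.0962 for Ccnd2 and from 0.00506 to 0.124 for Ccnd3, and both calls were lost without any 1 of the HEK-EV samples, without MSC-EV 1 and without MSC-EV 2, that of Ccnd3 also without MSC-EV 3. With the replicate number as a block, the adjusted p was 0.0503 for Ccnd2 and 0.0511 for Ccnd3 in limma. Ccnd1, the D cyclin among the members, had -0.24 (SE 0.10, adjusted p = 0.183) in the same comparison, with MSC-EV lower in 8 of 9 sample pairs.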

How the results depend on the processing

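Depth is known only in relative terms and was higher in each MSC-EV sample than in each other sample, and no detection limit was computed; the largest mitotic difference, that of Ccnb2 in MSC-EV against PBS, was 0.86 with an SE of 0.45. The count of members called was 0 in each comparison under the alternatives run, with 1 exception: depth as a covariate called 1 member in MSC-EV against HEK-EV (Pcna, 0.341). Of the values of named members under the alternatives, 352 kept their direction and side of the threshold, 7 changed sign and 1, that of Pcna, came past the threshold. No filter, a minimum of 5 TPM, only the 6 samples compared and the replicate block cannot change a difference. Nor can leaving out a sample of the group not compared. The count of 352 is thus partly fixed in advance. All genes called in MSC-EV against PBS (706) became 361 with no filter, 77 with only the 6 samples compared, 404 with the replicate block, 21 with the acinar term, 1339 with depth, and 5 to 1861 with 1 sample left out. In MSC-EV against HEK-EV (817) they became 387 with no filter, 459 with FPKM, 501 with median-of-ratios scaling, 448 with the replicate block, 1449 with depth and 0 to 1369 with 1 sample left out. In HEK-EV against PBS (0) there were 4 with no filter and 0 to 2 with 1 sample left out.

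Of the other pathway genes, 3 were called in MSC-EV against PBS, with 0 under no filter, under only the 6 samples, under the replicate block and under the acinar term, 1 under FPKM or median-of-ratios scaling (Cdk4, higher, in both), 12 under depth and 0 to 9 with 1 sample left out. In MSC-EV against HEK-EV 2 were called, with 0 under no filter, 6 under only the 6 samples, 1 under the replicate block (Btg2, neither of the 2) or the acinar term (Ccnd2), 7 under depth and 0 to 6 with 1 sample left out.

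The median difference of mitotic members in MSC-EV against PBS (0.46) was -0.0485 with the acinar term and 1.30 with depth, and that of S-phase members (0.02) was 0.353 with depth. Differences that changed sign, none of them called, were Rrm1 in MSC-EV against PBS (0.12; -0.087 with the acinar term, and -0.0292 without PBS 3 and -0.01 without MSC-EV 3, in a range of -0.0292 to 0.309 with 1 sample left out), Mcm3 (0.10; -0.00214 without MSC-EV 3, up to 0.211 without MSC-EV 2), and in HEK-EV against PBS Kif23 (0.24; -0.00791 with the acinar term) and Cdc20 (0.25; -0.235 with the acinar term and -0.0804 without PBS 3, up to 0.608 without PBS 1). The causes were not tested. The acinar term with the cut planned at 0.001% could not be fitted, since all 9 samples lay above it. The cut of 0.002% was chosen after seeing the data. It marks vesicle samples only, so the term is partly confounded with the vesicle groups.

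Deviations of same-numbered samples from their group means correlated at -0.499 to 0.058, and those of differently numbered samples at -0.277 to 0.547. With so few samples, these correlations cannot decide whether the replicate numbers pair the samples. With the number as a replicate block, 0 members were called in each comparison. The class medians could not change, since each group holds every number. With this block, Ccnd2 between the vesicle groups had an adjusted p of 0.0503 in limma. Ccnd3 had an adjusted p of 0.0511 there and 0.0507 against PBS in limma.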
